A study of Mus musculus with 12 samples.

Results

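The 8 genes described here encode secreted factors that act on blood vessels and the surface receptors they meet: the ligands Vegfa, Vegfb, Vegfc and Pgf, the co-receptor Nrp1, the vessel-inhibiting matrix protein Thbs1, the ligand Angpt2 and its receptor Tek. They were taken by name, as 8 of the 55421 mouse genes in the deposited count table, and each matched 1 identifier. The libraries form 4 groups of 3: PMJ2R cells given 5 nM rebastinib for 6 h, PMJ2R controls, ID8 cells given the same dose for the same time, and ID8 controls. PMJ2R is a macrophage line from the peritoneal lavage of female C57BL6J mice that carries the oncogenes v-raf and v-myc, and ID8 is a cultured epithelial line from the ovary of female C57BL6J wildtype mice, used as a model of ovarian cancer. Rebastinib is a kinase inhibitor with TIE2, the receptor made by Tek, among its targets. Other kinases it may inhibit are not described here. Each group is thus 1 immortal line in culture with no vessel around it, and the labels say neither what the controls received nor how the replicates of a group arose. A p-value here therefore speaks of the spread among libraries, which may be technical only. Chemotherapy arms named in the design text were not analysed here.

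VEGF ligands are secreted growth factors that bind receptor tyrosine kinases on endothelial cells. VEGF-A drives the sprouting of blood vessels, VEGF-C acts mainly on lymphatic vessels, and VEGF-B and placental growth factor bind the receptor Flt1, which can also hold VEGF-A. Neuropilin 1 holds VEGF-A next to its receptors, while angiopoietin 2 modulates TIE2, and thrombospondin 1 restrains vessel growth. Tumour cells and macrophages are both known as sources of VEGF-A in tumours, and some macrophages near vessels are known to carry TIE2.

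Library totals ran from 19025504 to 20242502 counts in PMJ2R rebastinib libraries and from 23200008 to 27070556 in PMJ2R controls, against 19057954 to 24971090 in ID8 rebastinib libraries and 22102800 to 23486355 in ID8 controls. In PMJ2R, 9 of 10 macrophage markers reached 1 CPM (counts scaled to a common library size with TMM factors) in both groups and Mertk did not. After rebastinib Fcgr1 changed by -2.48 and Csf1r by -0.87 there on the log2 scale. The other 7 were called higher with TMM scaling, where 40.1% of all tested genes were higher. With library totals alone the median of all tested genes there moved from -0.05 to -0.60. The rises of Ptprc (0.15) and Spi1 (0.30) were smaller than that shift, so they depend on the scaling. The 10 macrophage markers summed to 3364 ± 43.8 CPM after rebastinib against 2220 ± 55.3 CPM in PMJ2R controls (SD, n = 3 each). With library totals alone the sums were 2771 ± 30.5 and 2579 ± 38.0 CPM. In ID8, 9 of 10 ovarian surface markers reached 1 CPM after rebastinib, with Pax8 at 0, and 10 of 10 in controls, while none of them reached it in PMJ2R. Among markers of other cells, 2 of 10 macrophage markers, Csf1r and Cd68, reached 1 CPM in both ID8 groups and rose by 0.93 and 0.64 on the log2 scale, and 4 of 6 fibroblast and pericyte markers also reached it there. Rebastinib and control libraries also differed in make-up. Mitochondrial genes took 5.64% ± 0.204 of counts in PMJ2R rebastinib libraries against 3.76% ± 0.430 in PMJ2R controls, and 4.94% ± 0.195 in ID8 rebastinib libraries against 3.02% ± 0.114 in ID8 controls (SD, n = 3). Ribosomal protein genes took 7.73% ± 0.156 of counts in PMJ2R rebastinib libraries against 5.33% ± 0.388 in PMJ2R controls, and 9.65% ± 1.04 in ID8 rebastinib libraries against 4.91% ± 0.410 in ID8 controls (SD, n = 3). Genes that overlap ribosomal RNA took 5.82% ± 0.184 against 0.128% ± 0.0400 in PMJ2R, and 1.23% ± 0.319 against 0.211% ± 0.129 in ID8. Fewer genes reached 10 counts after rebastinib in both lines. The groups did not overlap in any of these measures (exact two-sided permutation test, p = 0.1, the smallest that 3 against 3 allows). What part this plays in the results below was not tested. With those genes and the mitochondrial genes removed before scaling, no gene of the 8 that had passed the test lost its call in PMJ2R or ID8.

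The members spanned a wide range of levels, as the plot of levels in each library shows. Vegfa, Vegfb and Nrp1 were above 30 CPM in all 12 libraries, Vegfc and Thbs1 were well detected in ID8 and low in PMJ2R, and Angpt2, Pgf and Tek were low or at 0. Counts per kb of exon allow a comparison between genes. On that scale the mean Vegfa level was 42.5 ± 1.33 in PMJ2R rebastinib libraries and 7.87 ± 1.08 in PMJ2R controls, and 48.7 ± 2.35 in ID8 rebastinib libraries and 65.6 ± 2.98 in ID8 controls (CPM per kb, SD, n = 3 each). Vegfb stood at 44.4 ± 1.14 and 44.4 ± 6.91 CPM per kb in PMJ2R rebastinib and control libraries, and at 41.0 ± 4.05 and 29.2 ± 0.851 CPM per kb in ID8 rebastinib and control libraries. Vegfb was therefore the leading VEGF ligand transcript per length in PMJ2R controls and Vegfa in ID8 controls.

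**Figure D1:**
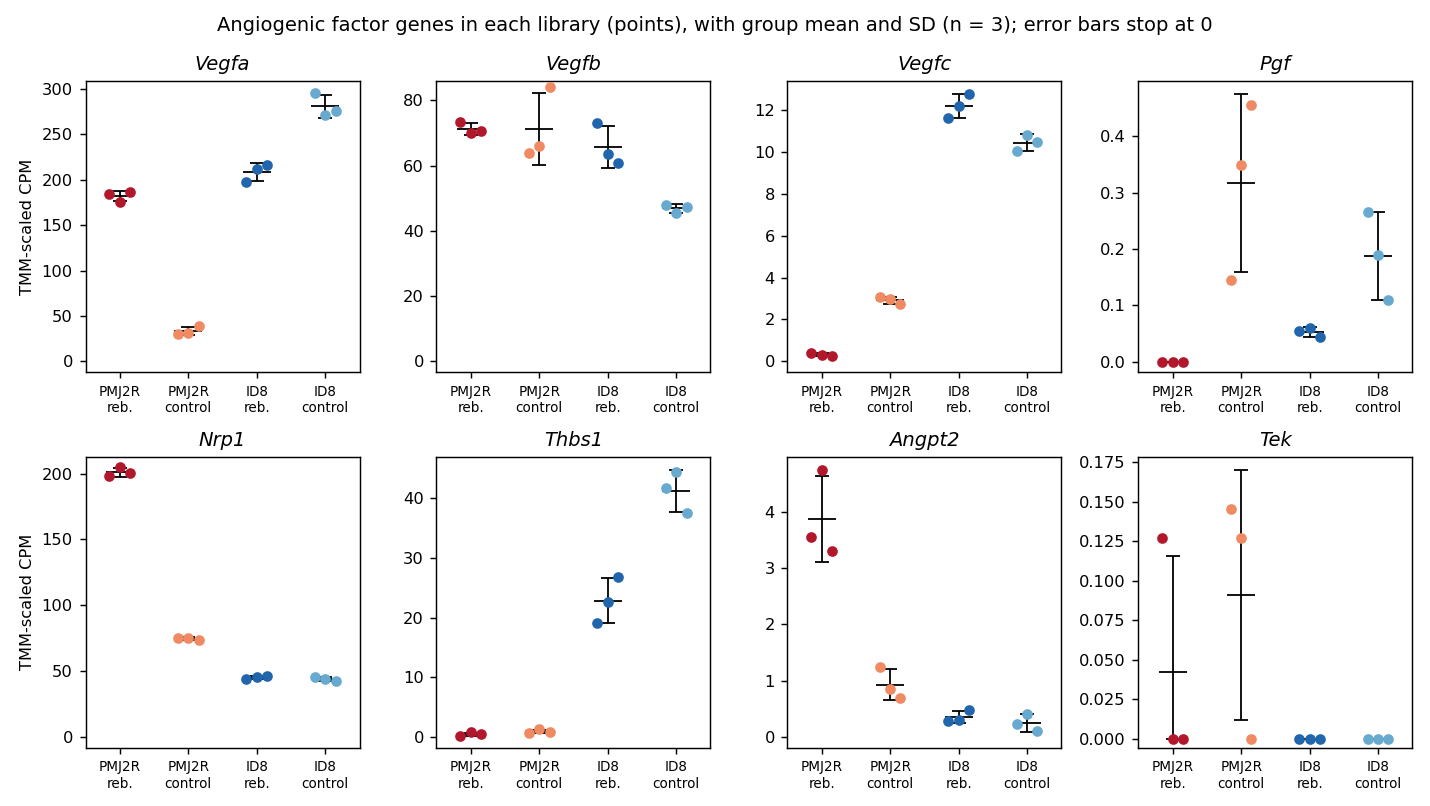
Each panel shows 1 gene, with TMM-scaled CPM on the vertical axis and a point for each of the 12 libraries; horizontal marks and bars give the group mean and SD (n = 3), with lower bars stopping at 0. Vegfa averaged 182 CPM in PMJ2R rebastinib libraries and 33.7 CPM in PMJ2R controls, while Tek had no counts in ID8.

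The transcript of TIE2 was close to undetected. Tek (ENSMUSG00000006386, GRCm38 chr4:94739289-94874976, plus strand) had 2, 0 and 0 counts in PMJ2R rebastinib libraries 1, 2 and 3, against 4, 4 and 0 in PMJ2R controls. It had 0 counts in every ID8 library, which allows up to 0.0521 CPM in the ID8 rebastinib group and 0.0374 CPM in ID8 controls, taking 3 counts over the group as the limit. The PMJ2R groups overlapped, and their TMM-scaled ratio of 0.455 had an exact 95% interval from 0.0471 to 2.28, which covers counting error only. Tek was too low to enter the test in either line, so a change in it was not detectable at this depth. The other receptor of this family, Tie1, summed to 6 counts in PMJ2R rebastinib libraries and 1 in PMJ2R controls, and to 0 in both ID8 groups.

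In PMJ2R the question was how the genes stood after rebastinib, and the answer was a split. Vegfa, Nrp1 and Angpt2 were higher, Vegfc and, less firmly, Thbs1 were lower, and Vegfb did not pass the test. Of the 6 members that could be tested, 3 rose and 2 fell at an adjusted p under 0.05 (edgeR quasi-likelihood test, Benjamini-Hochberg over all genes). The share of all 14010 tested genes called was 83.7%, with 40.1% higher and 43.6% lower, so 5 of 6 is near the background and the size of each change says more than the count. Counts are relative to the library, so neither cell number nor total RNA per cell can be seen. A relative rise need not be an absolute rise.

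Vegfa (ENSMUSG00000023951, GRCm38 chr17:46016993-46032369, minus strand) had 184, 176 and 187 CPM in PMJ2R rebastinib libraries 1, 2 and 3, against 30.5, 31.6 and 39.0 CPM in PMJ2R controls. All 3 treated libraries lay more than 100 CPM above every control, and 84.3% of all tested genes showed no overlap. The log2 fold change was 2.50 (SE 0.0691), a 5.64-fold rise with an edgeR adjusted p of 2.00e-15. Of all tested genes, 353 (2.52%) rose as far or further. Over 15 alternatives the Vegfa value ran from 1.94 to 2.91. Nrp1 (ENSMUSG00000025810, GRCm38 chr8:128358604-128503363, plus strand) had 198, 205 and 200.1 CPM in the treated libraries, against 75.1, 75.3 and 73.6 CPM in controls. The groups were tight and far apart, and the co-receptor rose by 1.49 on the log2 scale (SE 0.0466, 2.81-fold, edgeR adjusted p = 4.77e-15). As far a rise was seen in 6.81% of tested genes. The Nrp1 value ran from 0.93 to 1.62 over 15 alternatives. The Nrp1 locus also hosts the microRNA gene Mir1903 over 80 exon bases, which had 0 counts.

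Angpt2 (ENSMUSG00000031465, GRCm38 chr8:18690263-18741562, minus strand) was low but rose. It had 56, 79 and 52 counts in PMJ2R rebastinib libraries, which is 3.56, 4.74 and 3.31 CPM, against 34, 27 and 20 counts in controls, which is 1.24, 0.855 and 0.701 CPM. Every treated library was above every control, and 84.3% of all tested genes showed no overlap. The log2 fold change was 2.12 (SE 0.234, 4.35-fold, edgeR adjusted p = 1.42e-07), a rise matched or passed by 3.45% of tested genes. Over 14 alternatives it ran from 1.56 to 2.36.

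Vegfc, the lymphatic growth factor (ENSMUSG00000031520, GRCm38 chr8:54077606-54187096, plus strand), went the other way. It had 6, 5 and 4 counts in PMJ2R rebastinib libraries, or 0.381, 0.300 and 0.255 CPM, against 84, 94 and 78 counts in controls, or 3.06, 2.98 and 2.73 CPM. The treated libraries were all far below the controls, at a log2 fold change of -3.15 (SE 0.282, 8.85-fold lower, edgeR adjusted p = 8.08e-09). Of all tested genes, 421 fell as far. Over 14 alternatives the Vegfc value ran from -3.7 to -3.01. Vegfc entered the PMJ2R test only through its control counts, so its call is weak ground for a fall. Pgf, encoding placental growth factor (ENSMUSG00000004791, GRCm38 chr12:85166635-85177790, minus strand), had 0 counts in all 3 treated libraries, against 4, 11 and 13 in controls. The groups did not overlap, as in 84.3% of all tested genes. Against a limit of 3 counts over the group Pgf was at least 5.13-fold lower (7.23-fold with library totals alone), with no test because it did not pass the filter on low counts.

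Thbs1 (ENSMUSG00000040152, GRCm38 chr2:118111876-118127133, plus strand) was near the detection limit in PMJ2R. It had 3, 13 and 7 counts in rebastinib libraries, or 0.191, 0.781 and 0.445 CPM, against 21, 41 and 24 counts in controls, or 0.765, 1.30 and 0.841 CPM. The ranges overlapped, since the second treated library exceeded the first control. Like Vegfc, Thbs1 entered the PMJ2R test only through its control counts. The log2 fold change of -0.97 (SE 0.406) had an edgeR adjusted p of 0.0355. That call was lost under 6 of 14 alternatives, with adjusted p from 0.00186 to 0.211 over all of them. The value was -0.59 without PMJ2R rebastinib library 1, -0.90 without rebastinib library 3, -0.69 without control library 2 and -0.55 with length and GC trends removed, none of them called; DESeq2 gave -0.93, also not called. Without rebastinib library 2 it was -1.53 and was called. Vegfb (ENSMUSG00000024962, GRCm38 chr19:6982473-6987651, minus strand) had 73.4, 70.0 and 70.6 CPM in treated libraries, against 63.7, 66.1 and 84.0 CPM in controls. The ranges overlapped, and the log2 fold change of 0.06 had a 95% interval from -0.09 to 0.22 (edgeR adjusted p = 0.464). The call depends on the processing: Vegfb was called lower at -0.49 with library totals as the only scaling and at -0.14 with no filter on low counts, and higher at 0.17 without PMJ2R control library 3.

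In ID8 the same genes were set against ID8 controls. Of 5 tested members, Vegfb rose and Vegfa and Thbs1 fell, while Vegfc and Nrp1 did not pass the test, which is 3 of 5 called against 80.4% of all 14829 tested genes, 38.4% higher and 42.0% lower. Vegfa had 197, 212 and 216 CPM in ID8 rebastinib libraries, against 296, 272 and 276 CPM in ID8 controls. All treated libraries were below all controls, and 82.2% of all tested genes showed no overlap. The log2 fold change was -0.43 (SE 0.0680, 1.34-fold lower, edgeR adjusted p = 4.48e-05). With smooth trends of exon length and GC content removed, the change was -0.19 and was still called, and with library totals alone it was -0.86. As large a fall was seen in 38.5% of tested genes.

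Vegfb had 73.1, 63.4 and 60.7 CPM in ID8 rebastinib libraries, against 48.0, 45.4 and 47.4 CPM in ID8 controls. The groups did not overlap, as in 82.2% of all tested genes, and Vegfb rose by 0.49 (log2, SE 0.0816, 1.40-fold, edgeR adjusted p = 6.66e-05). The call depends on the scaling: with library totals alone the value was 0.05 and was not called (edgeR adjusted p = 0.534, the highest of 15 alternatives, with 1.93e-07 the lowest). Thbs1 had 19.2, 22.6 and 26.7 CPM in treated libraries, against 41.7, 44.4 and 37.5 CPM in controls. The groups were apart by more than 10 CPM, at a log2 fold change of -0.84 (SE 0.112, 1.79-fold lower, edgeR adjusted p = 7.46e-06), and Thbs1 stayed called under all 15 alternatives, at -0.49 with length and GC trends removed and -1.27 with library totals alone. Of its exon bases, 208 are shared with the opposite-strand gene Gm29233, which summed to 287 counts over all libraries.

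Vegfc had 11.6, 12.2 and 12.8 CPM in ID8 rebastinib libraries, against 10.1, 10.8 and 10.5 CPM in ID8 controls. The groups did not overlap, as in 82.2% of all tested genes, yet the log2 fold change of 0.23 (95% interval 0.03 to 0.43) had an edgeR adjusted p of 0.0531. Over the alternatives the adjusted p ran from 0.0250 to 0.553. Vegfc was called with RLE scaling, with DESeq2, with the ribosomal and mitochondrial genes removed and, at 0.27, without ID8 rebastinib library 1, and it turned to -0.20 with library totals alone. Nrp1 had 43.7, 45.8 and 46.2 CPM in treated libraries, against 45.7, 44.0 and 42.3 CPM in controls. The ranges overlapped, and the log2 fold change of 0.05 had a 95% interval from -0.10 to 0.19 (edgeR adjusted p = 0.576). It was -0.39 with library totals alone and 0.44 with length and GC trends removed, and was called in both. Angpt2 and Pgf had too few counts to be tested in ID8. Angpt2 had 5, 5 and 11 counts after rebastinib and 6, 11 and 3 in controls, which overlap, at a ratio of 1.46 (exact 95% interval 0.755 to 2.85), or 1.09 with library totals alone. Pgf had 1, 1 and 1 counts after rebastinib and 7, 5 and 3 in controls, at a ratio of 0.279 (exact 95% interval 0.0517 to 0.986), or 0.208 with library totals alone. The Pgf groups did not overlap, as in 82.2% of all tested genes.

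**Figure D2:**
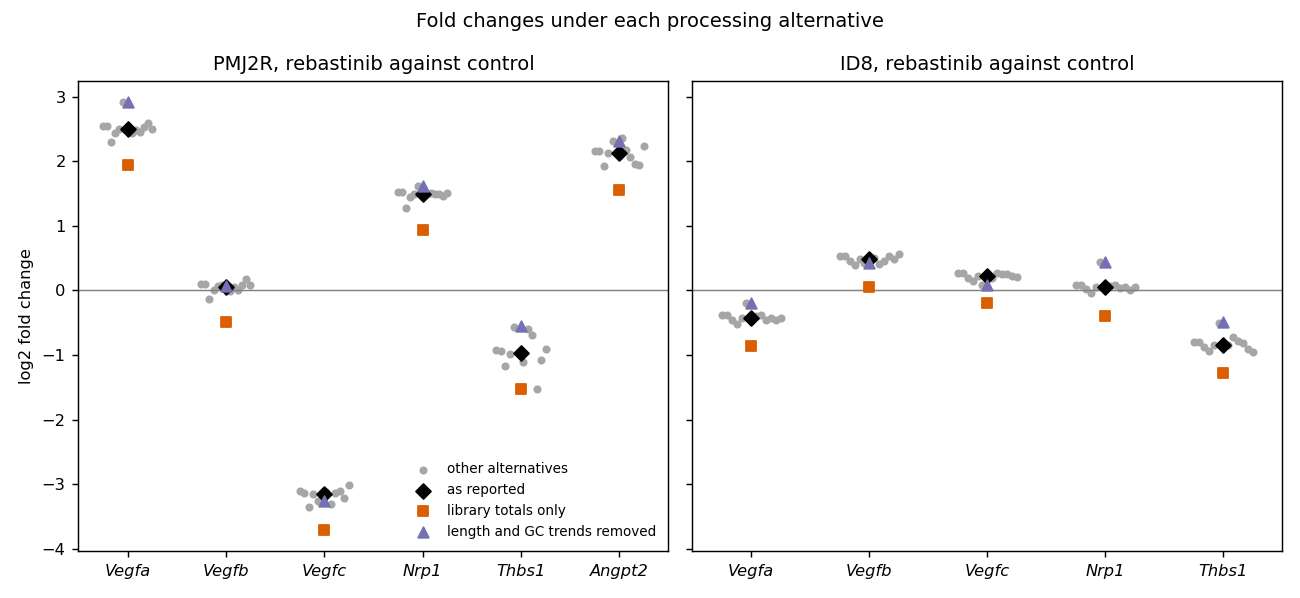
Log2 fold changes, rebastinib over control, of the tested members on the vertical axis under each processing alternative; black diamonds are the values as reported and grey points are the other alternatives, including each library left out. The PMJ2R values of Vegfa, Nrp1, Angpt2 and Vegfc stay on 1 side of 0, while Vegfc and Nrp1 in ID8 and Vegfb in PMJ2R cross it.

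The responses of the lines were compared directly with an interaction term over the 12 libraries. Of 6 tested members, Vegfa, Nrp1 and Angpt2 differed towards PMJ2R and Vegfb and Vegfc towards ID8, which is 5 of 6 against 52.4% of all 16566 tested genes, 21.8% higher and 30.6% lower. The difference, PMJ2R minus ID8 on the log2 scale, was 2.86 for Vegfa (SE 0.106, edgeR adjusted p = 4.15e-16), with a rise in PMJ2R and a fall in ID8. It was 1.39 for Nrp1 (SE 0.0849, edgeR adjusted p = 4.08e-12) and -3.43 for Vegfc (SE 0.279, edgeR adjusted p = 4.68e-10). A difference as large as that of Vegfc, in the same direction, was seen in 1.36% of tested genes. Vegfb differed by -0.48 (SE 0.124, edgeR adjusted p = 0.00209). Angpt2 differed by 1.53 (SE 0.596, edgeR adjusted p = 0.0351), a call that was lost under 8 of 20 alternatives (the replicate block, and without ID8 rebastinib library 1 or 2, ID8 control library 1 or 2, PMJ2R rebastinib library 2, or PMJ2R control library 2 or 3), with values from 0.96 to 1.88 and adjusted p from 0.0118 to 0.290. Thbs1 differed by -0.18 with a 95% interval from -1.0 to 0.64, so no difference between the lines was shown.

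**Figure D3:**
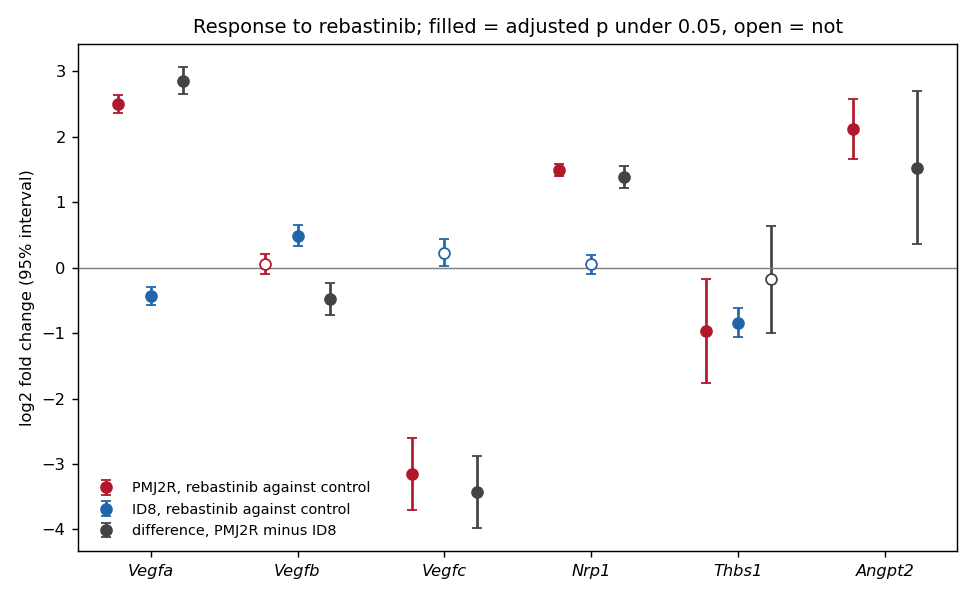
Log2 fold changes, rebastinib over control, for each line and their difference, with 95% intervals; filled points passed an adjusted p under 0.05 and open points did not. Vegfa stands at 2.50 in PMJ2R and -0.43 in ID8, and Angpt2 has no ID8 point because it was not tested there.

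Without drug the lines themselves differed. Thbs1, Vegfa and Vegfc were lower and Angpt2 higher in PMJ2R than in ID8 controls, 4 of 6 tested members against 43.7% of all 15924 tested genes, where a call also needed a 2-fold difference (18.1% higher, 25.6% lower). Thbs1 was 45.1-fold lower in PMJ2R controls (log2 fold change -5.50, SE 0.134, edgeR adjusted p = 1.35e-18), at 0.968 ± 0.289 CPM in PMJ2R against 41.2 ± 3.49 CPM in ID8 (SD, n = 3 each). Vegfa was also lower in PMJ2R controls (log2 fold change -3.17, SE 0.0809, edgeR adjusted p = 3.28e-18), and Vegfc 3.85-fold lower (-1.95, SE 0.118, edgeR adjusted p = 5.35e-12). Angpt2 was 3.40-fold higher in PMJ2R (1.77, SE 0.398, edgeR adjusted p = 4.26e-04). It entered this test only through its PMJ2R counts, with 34, 27 and 20 in PMJ2R controls against 6, 11 and 3 in ID8 controls. Its call is therefore weak ground for a difference between the lines. Nrp1 and Vegfb were higher in PMJ2R by 0.65 and 0.49 on the log2 scale, under the 2-fold limit. With length and GC trends removed, these became 1.10 and 1.17 and were called.

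The order of the groups differed by gene. From highest to lowest, Vegfa ran from ID8 controls through ID8 rebastinib and PMJ2R rebastinib to PMJ2R controls, and no neighbours in that order overlapped. Nrp1 ran from PMJ2R rebastinib through PMJ2R controls to ID8, where the ID8 groups overlapped. For Vegfb, only the step between the ID8 groups was free of overlap. Between rebastinib and control libraries, 84.3% of all tested genes in PMJ2R and 82.2% in ID8 showed no overlap.

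Within-library ratios show the shift in ligand balance without any scaling between libraries. They are not corrected for trends of exon length and GC content. Vegfa has 4285 exon bases and 50.85% GC, and Vegfb has 1605 and 62.61%. The ratio of Vegfa to Vegfb, per kb, was 0.940, 0.941 and 0.990 in PMJ2R rebastinib libraries, against 0.180, 0.179 and 0.174 in PMJ2R controls. It was 1.01, 1.25 and 1.33 in ID8 rebastinib libraries, against 2.31, 2.24 and 2.18 in ID8 controls. The ratio was higher after rebastinib in every PMJ2R library and lower in every ID8 library (exact two-sided permutation test, p = 0.1 in each line, the smallest possible). As a share of VEGF ligand counts per kb (Vegfa, Vegfb, Vegfc, Vegfd and Pgf), Vegfa made up 48.8% ± 0.755 in PMJ2R rebastinib libraries against 14.7% ± 0.154 in PMJ2R controls. In ID8 it made up 51.2% ± 3.25 after rebastinib against 65.6% ± 0.624 in controls (SD, n = 3 each). The Vegfc share was 0.146% ± 0.0283 in PMJ2R rebastinib libraries against 2.26% ± 0.429 in PMJ2R controls, and 5.24% ± 0.320 in ID8 rebastinib libraries against 4.28% ± 0.309 in ID8 controls.

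**Figure D4:**
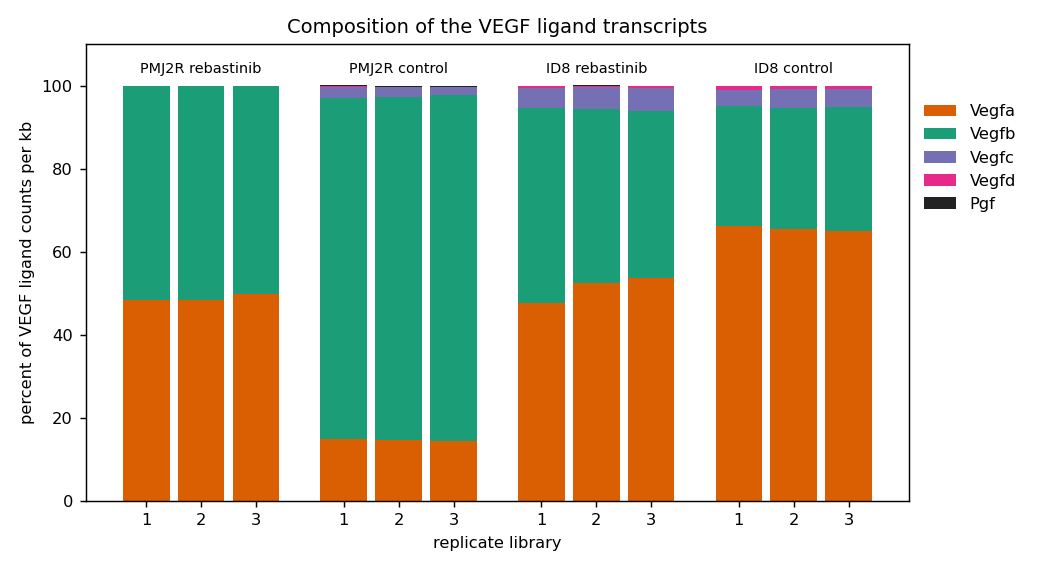
Stacked bars give the percent of VEGF ligand counts per kb of exon taken by each ligand gene, 1 bar per library. Vegfa averages 48.8% in PMJ2R rebastinib libraries and 14.7% in PMJ2R controls, and 51.2% in ID8 rebastinib libraries and 65.6% in ID8 controls.

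For the 3 VEGF ligand genes with a usable window, the sequence just before the start is shown as a description. Any link between these letters and the changes above was not tested, and sequence further upstream was not searched. Each is 250 bases upstream of the RefSeq start on GRCm38.p6, 5′ to 3′, from chr17:46032378-46032627 (minus) for Vegfa, chr19:6987652-6987901 (minus) for Vegfb and chr8:54077282-54077531 (plus) for Vegfc. Capitals mark the letters GGGCGG (the GC box), ACGTG or GCGTG (the core of the hypoxia-inducible factor site) and TGACTCA (the AP-1 site), on either strand.
Vegfa: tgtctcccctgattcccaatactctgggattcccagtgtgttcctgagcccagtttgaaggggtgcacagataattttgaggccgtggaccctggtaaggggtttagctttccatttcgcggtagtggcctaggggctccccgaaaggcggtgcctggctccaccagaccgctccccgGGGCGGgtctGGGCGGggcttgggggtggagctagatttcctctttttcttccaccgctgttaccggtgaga
Vegfb: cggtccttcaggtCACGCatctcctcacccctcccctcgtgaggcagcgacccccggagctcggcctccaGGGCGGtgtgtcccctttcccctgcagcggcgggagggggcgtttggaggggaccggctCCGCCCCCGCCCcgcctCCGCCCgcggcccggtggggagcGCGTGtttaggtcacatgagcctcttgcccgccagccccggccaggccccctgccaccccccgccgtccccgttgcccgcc
Vegfc: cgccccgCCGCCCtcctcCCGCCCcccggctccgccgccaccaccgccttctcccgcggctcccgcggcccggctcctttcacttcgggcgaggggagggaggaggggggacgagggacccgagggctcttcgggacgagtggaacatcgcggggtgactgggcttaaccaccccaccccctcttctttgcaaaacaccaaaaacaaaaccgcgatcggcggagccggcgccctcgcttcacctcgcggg
The Vegfa window holds 2 GC boxes, the Vegfc window 2, and the Vegfb window 4, a pair of which adjoin. Of these 3 windows, only that of Vegfb holds GCGTG, in 2 places, and none holds ACGTG or TGACTCA. Vegfa has a second RefSeq window, at chr17:46025164-46025413 inside the annotated gene, which holds 1 ACGTG, 1 GCGTG and 1 GC box and is not printed. In all 32851 RefSeq windows of this length, 32.7% hold GGGCGG, 28.2% GCGTG, 16.6% ACGTG and 4.46% TGACTCA. A match is a description of letters and not a binding site. Of the 8 genes, 6 had a window, and those of Pgf and Nrp1 lie inside the annotated gene and are not printed. The Tek window holds none of these letters and is not printed, since Tek was close to undetected.

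Genes around the 8 in the pathway were also measured, in lists of 7 to 23 genes. Of the other VEGF and angiopoietin genes, 2 of 9 could be tested in PMJ2R and both fell, against 43.6% of tested genes there. Of these 2, 1 was called with DESeq2, with a mean of at least 5 CPM or with length and GC trends removed. In ID8, 5 of 9 could be tested and all 5 fell, against 42.0% of tested genes. Nrp2, the co-receptor next of kin to Nrp1, had a log2 fold change of -1.82 (SE 0.0995) in PMJ2R and -1.65 (SE 0.0706) in ID8. In PMJ2R the 2 neuropilin genes thus moved in opposite directions. Flt1, the receptor for VEGF-A and VEGF-B, changed by -0.48 in PMJ2R and -1.07 in ID8. In ID8 Flt4, the receptor for VEGF-C, averaged 20.7 ± 2.63 CPM in rebastinib libraries against 87.8 ± 5.61 CPM in controls (SD, n = 3 each), a log2 fold change of -2.08. Ptprb, a phosphatase that acts on TIE2, changed by -2.04 and Vegfd by -0.89 in ID8. Kdr, the main receptor for VEGF-A, had 2 counts in PMJ2R rebastinib libraries and 1 in PMJ2R controls, and none in ID8.

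Among 14 regulators of Vegfa, 13 were tested in PMJ2R, of which 6 rose and 7 fell. Of all genes tested in PMJ2R, 83.7% were called, 40.1% higher and 43.6% lower. The median log2 fold change of the list was -0.25 against -0.05 over all tested genes. Hif1a, the oxygen-regulated subunit of the factor that drives Vegfa transcription, had a log2 fold change of 1.60 there (SE 0.0514, edgeR adjusted p = 6.29e-15). It averaged 241 ± 2.34 CPM in PMJ2R rebastinib libraries against 83.1 ± 5.58 CPM in PMJ2R controls. In ID8 it averaged 352 ± 55.9 CPM after rebastinib against 329 ± 16.7 CPM in controls, a log2 fold change of 0.10 that did not pass (edgeR adjusted p = 0.330). The difference in response for Hif1a, PMJ2R minus ID8, was 1.43 (SE 0.116, edgeR adjusted p = 4.53e-10). Hif1an, which restrains that factor, fell by 1.24 in PMJ2R and by 1.02 in ID8 on the log2 scale. Zfp36l2, which speeds the decay of AU-rich messages, rose by 1.52 in PMJ2R and by 0.53 in ID8. Its raw counts in ID8 summed to 13040 after rebastinib and 12438 in controls. In ID8 its relative Zfp36l1 fell by 2.26, and Epas1, another oxygen-regulated subunit, fell by 1.35. Both were also called lower in PMJ2R, at -0.80 for Zfp36l1 and -1.21 for Epas1, the latter on 26 counts after rebastinib and 115 in controls. Of the same list in ID8, 4 of 14 rose, 8 fell and 2 did not pass, at a median of -0.21 against -0.07 over all tested genes. There 80.4% of all tested genes were called, 38.4% higher and 42.0% lower.

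In ID8, 8 of 12 tested neuropilin partners fell and none rose (median -0.80), against 80.4% of all tested genes called and 42.0% lower, among them Sema3d at -2.04, Plxna4 at -1.62 and Sema3a at -1.53. Only 4 could be tested in PMJ2R, where Gipc1 fell by 1.59, Plxna3 fell by 1.58 and Plxnd1 rose by 0.18 on the log2 scale. Of 12 other angiogenic ligands tested in PMJ2R, 4 were higher and 5 lower (median 0.14), against 40.1% and 43.6% of all tested genes. Of 20 tested in ID8, 6 were higher and 10 lower (median -0.29), against 38.4% and 42.0%. Hbegf, an EGF family ligand, rose by 2.66 in PMJ2R and by 0.59 in ID8. Its raw counts in ID8 summed to 1087 after rebastinib and 1005 in controls. In PMJ2R it averaged 26.5 CPM in rebastinib libraries against 4.37 CPM in controls. Angptl2, a secreted angiopoietin-like protein, changed by -2.21 in PMJ2R and -0.51 in ID8. Angptl4, of the same family, changed by -1.93 in PMJ2R and -2.50 in ID8. The growth factor gene Pdgfb fell by 1.62 in ID8. Aggf1, an angiogenic factor, rose in both lines, by 1.16 in PMJ2R and 1.28 in ID8. Of the inhibitors of vessel growth, 3 of 5 fell and 1 rose in PMJ2R, where 43.6% of all tested genes were lower, and 6 of 8 fell and 2 rose in ID8, where 42.0% were lower (medians -0.62 and -0.95). With a mean of at least 5 CPM, 2 of them were called in PMJ2R and 4 in ID8. In PMJ2R Pf4, a platelet chemokine, rose by 1.45, and Col18a1, the source of endostatin, fell by 2.98 (-0.84 in ID8). Col18a1 had 5 counts after rebastinib and 78 in controls in PMJ2R, and 27 and 68 in ID8. Vash1 fell by 3.34 in PMJ2R, on 4 counts after rebastinib and 81 in controls. In ID8 Adamts1 fell by 2.84, Vash2 had 2 counts after rebastinib and 207 in controls, and the chemokine gene Cxcl10 had 4 and 176. Col18a1 and Vash1 in PMJ2R, and Vash2 and Cxcl10 in ID8, entered the tests only through their control counts. Their calls are therefore weak ground for a fall. Of the thrombospondin family and its receptors, 2 rose and 1 fell of 5 tested in PMJ2R, and 2 rose and 1 fell of 3 in ID8, against 83.7% and 80.4% of all tested genes called. With library totals alone 5 were called in PMJ2R and 1 in ID8. Cd47, a receptor for thrombospondin 1, rose by 1.17 in PMJ2R and 0.54 in ID8, and Cd36, another of its receptors, rose by 1.17 in PMJ2R. Raw Cd47 counts in ID8 summed to 12857 after rebastinib and 12336 in controls. Comp, a member of the thrombospondin family, fell by 1.28 in PMJ2R. In ID8 Lrp1, an uptake receptor, fell by 1.23 and Thbs3 rose by 1.12, the latter on 49 counts after rebastinib and 31 in controls.

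**Figure D5:**
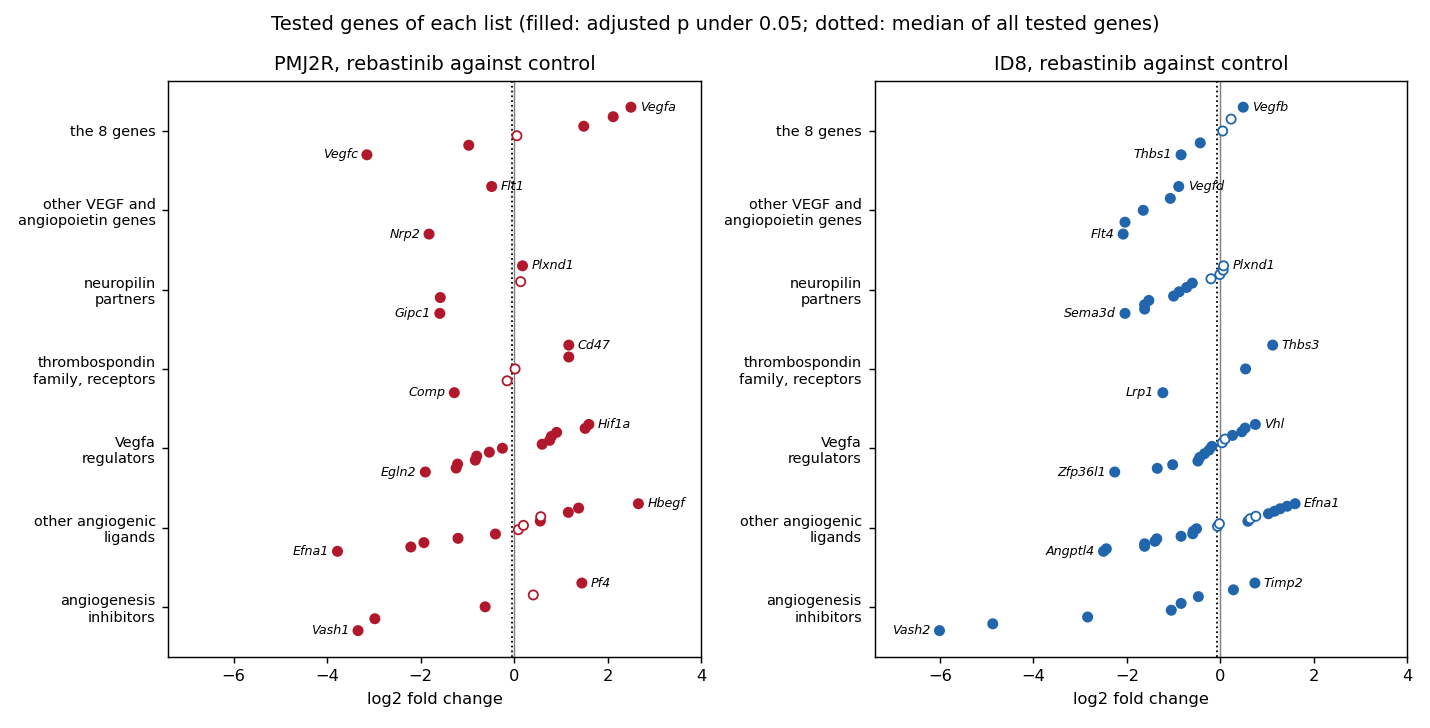
Each point is 1 tested gene, placed by its log2 fold change (rebastinib over control) and grouped by list; filled points passed an adjusted p under 0.05 and the dotted line is the median of all tested genes. The highest and lowest gene of each list is named, and in ID8 the 5 other VEGF and angiopoietin genes all lie left of 0.

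Markers of endothelial cells were also measured. In ID8 their summed level was 101 ± 2.82 CPM in rebastinib libraries (98.5 to 104) against 183 ± 9.36 CPM in controls (174 to 193), with 3 of 14 markers at 1 CPM after rebastinib and 4 of 14 in controls. Most of that sum is Flt1, Flt4 and Esam. Flt1 and Flt4 are the VEGF receptors described above and fell, while Esam, a junction protein, rose, at 54.3 ± 5.27 CPM after rebastinib against 39.5 ± 0.833 CPM in controls (SD, n = 3 each, log2 fold change 0.46, edgeR adjusted p = 1.32e-04). The Esam rise depends on the scaling, since its raw counts in ID8 summed to 3104 after rebastinib and 3172 in controls. Kdr and Tie1 were at 0 in both ID8 groups. In PMJ2R the sum was 8.94 ± 0.454 CPM after rebastinib against 8.41 ± 0.267 CPM in controls, and the ranges overlapped. With library totals alone that PMJ2R direction turned, to 7.36 ± 0.390 CPM after rebastinib against 9.78 ± 0.510 CPM in controls. The part of these markers in the changes of the 8 genes was not tested.

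Across the 12 libraries, the genes whose levels most resembled each member were found by Pearson's r of log2(CPM + 1) among 11398 genes, as a description with no test. The nearest were Dusp16 for Vegfa (r = 0.993), Nt5dc2 for Vegfb (0.970), Lifr for Vegfc (0.998), Tmem263 for Thbs1 (0.998), Dnm1l for Nrp1 (0.998) and Vwa8 for Angpt2 (0.987). The next nearest were Cldn12 (0.991), Tjp3 (0.968), Cnpy4 (0.997), Slc37a3 (0.997), Chd1 (0.996) and, for Angpt2, again Dnm1l (0.984). The points share line and treatment group.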

How the data were processed

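RNA of PMJ2R and ID8 cells was sequenced as 12 libraries with a standard Illumina preparation, per the labels' protocols. The authors deposited raw counts per gene, as whole numbers. FastQC, STAR 2.6.1c, featureCounts, DESeq2 and the build GRCm38 are named in the submitters' processing notes; for the annotation, the strand setting and multiply mapped reads, nothing is stated there, so overlapping genes are uncertain. Symbols and positions came from GENCODE, promoter windows from RefSeq. Groups and replicate numbers came from the sample titles. Identifiers with no symbol held 0.0207% of counts.

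Counts past edgeR's filterByExpr were scaled by TMM and tested in R 4.3.3 with edgeR 4.0.16 (robust quasi-likelihood, Benjamini-Hochberg over all tested genes, threshold 0.05), within each line, as an interaction over all 12 libraries, and between control groups (also at least 2-fold). Intervals are 1.96 SE. Printed CPM use TMM over 12 libraries. The scripts were tested on simulated counts. Alternatives were RLE scaling, library totals, DESeq2 1.42.0, removal of length and GC trends, a filter at a mean of 5 CPM or none, a block for replicate number, each library left out and, added after seeing the data, removal of mitochondrial, ribosomal protein and ribosomal RNA overlapping genes. The members and lists were chosen with earlier results of these data known. The text names the 8 members, genes of the VEGF and angiopoietin list, up to 3 genes of each other list with the smallest p in each line, and the 2 most alike to each member.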

Additional observations from a re-analysis of the deposited data

Results flagged for a closer look

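The response to rebastinib differed between the lines, by the interaction test, for 5 of the 6 genes that could be tested, against 52.4% of all tested genes. The difference in log2 fold change, PMJ2R minus ID8, was 2.86 for Vegfa, 1.39 for Nrp1 and 1.53 for Angpt2, which were higher in PMJ2R relative to ID8. It was -0.48 for Vegfb and -3.43 for Vegfc, which were lower. The Angpt2 difference rests on 21 counts in ID8 rebastinib libraries and 20 in ID8 controls, and it lost its call when any of 7 single libraries was left out and with the replicate number as a block.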

How the results depend on the processing

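For the numbers of genes and of members called in each comparison, 130 of 132 values under the alternatives stayed within 1.5 times the value as reported. Both exceptions came with a mean of at least 5 CPM, which tests fewer genes: 2 members were called in PMJ2R in place of 5, and 3973 genes between the control groups in place of 6966. Counts of called genes in the wider lists, of at most 23 genes each, moved further than that in 22 cases, with several settings. Single-gene values that turned were Vegfc at -0.20 and Nrp1 at -0.39 in ID8 and Vegfb at -0.49 in PMJ2R with library totals alone; Nrp1 at -0.04 in ID8 with a mean of at least 5 CPM; Vegfb in PMJ2R at -0.14 with no filter and at -0.01 without PMJ2R control replicate 1 (-0.01 to 0.17 over libraries left out); and the Thbs1 difference between the lines at 0.18 without PMJ2R rebastinib replicate 1 and 0.09 without PMJ2R control replicate 2 (-0.77 to 0.18). Apart from the scaling by construction in the library-total cases, the cause was not tested. Library totals alone moved the median of all tested genes to -0.60 in PMJ2R and -0.50 in ID8, against -0.05 and -0.07, and gave 3104 higher and 8677 lower genes in PMJ2R (as reported 5623 and 6107) and 3540 and 8475 in ID8 (as reported 5687 and 6230). The ID8 rises of Cd47 (0.54), Zfp36l2 (0.53), Hbegf (0.59) and Esam (0.46) are near the ID8 shift of -0.43 in size, so they depend on the scaling. Removing length and GC trends moved the median of all tested genes to 0.08 in PMJ2R, 0.09 in ID8 and 0.25 between the controls (as reported -0.03), where it gave 4118 higher and 3602 lower genes (as reported 2890 and 4076). Leaving out each library gave 11520 to 11972 genes called in PMJ2R, 11478 to 12233 in ID8, 8104 to 8950 for the difference and 7254 to 7276 between the controls, with 4 to 6, 3 to 4, 4 to 5 and 4 members called. Deviations of same-numbered libraries from their group means correlated at -0.241, -0.0339 and -0.574 in ID8. In PMJ2R the correlations were 0.104, 0.00432 and 0.0852. With only 3 libraries centred in each group, this cannot settle whether the numbers pair the libraries. With the replicate block, 11726 genes were called in PMJ2R, 11418 in ID8, 8116 for the difference and 6958 between the controls, and among members only the Angpt2 difference lost its call. Depth limits Tek, Pgf and, in ID8, Angpt2.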
